A study of Mus musculus with 6 samples.

Results

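Glucose uptake, glycolysis and lactate transport were followed through 10 genes: the glucose transporter genes Slc2a1 and Slc2a3, the hexokinase genes Hk1 and Hk2, the glycolytic regulator gene Pfkfb3, the lactate dehydrogenase genes Ldha and Ldhb, the lactate carrier genes Slc16a1 and Slc16a3, and Bsg. Members were all probe sets that the platform annotation assigns to one of these symbols alone, 21 of 45037 probe sets that are not controls, and all 10 genes were among the 18193 genes tested. The retinas came from BALBc mice, an inbred albino strain. Dark adapted controls (3 arrays) and light damaged animals (3 arrays) had both spent 1 week in darkness. The light damaged group then received white fluorescent light of 6000 lux for 6 h, an exposure that injures photoreceptors, and its retinas were collected 24 h afterwards. Age, sex and the number of animals behind an array are not given in the sources used here, so p-values measure the spread between these arrays, which may be technical.

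The retina is known for converting much of its glucose to lactate even when oxygen is present, a trait ascribed mainly to photoreceptors. Glucose enters cells through facilitative transporters and is trapped by hexokinase. It then passes through glycolysis to pyruvate, which lactate dehydrogenase converts to lactate, and monocarboxylate carriers move lactate and pyruvate across membranes together with protons. Several steps exist in different forms. Hk2 and Ldha are known from photoreceptors, whereas Hk1 and Ldhb are found more widely in the retina. Slc16a1 encodes the carrier MCT1, found in photoreceptors, glia and pigment epithelium, and Slc16a3 encodes MCT4, a carrier of strongly glycolytic cells and of glia. Basigin, the product of Bsg, brings both carriers to the cell surface.

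Lactate carrier RNA showed the largest differences among the 10 genes. Slc16a1 was lower by 0.93 on the log2 scale in light damaged retinas (1.9-fold) and Slc16a3 was lower by 0.67 (1.59-fold), each in 3 of 3 same-numbered pairs of arrays. The transporter gene Slc2a3 was higher by 0.47 (1.39-fold), also in 3 of 3 pairs. On the values as deposited, these 3 genes passed the test when the replicate numbers of the titles entered the model as a block, and no member passed without the block.

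In that fit without the block (limma, threshold 0.05 on the Benjamini-Hochberg adjusted p over all genes), 0 of 10 members passed, where 2.01% of all genes did (1.74% higher and 0.269% lower), and their adjusted p lay between 0.226 and 0.967. At an unadjusted p under 0.05 there were 3 of 10 members, against 11.0% of all genes. The replicate numbers were taken to pair the arrays, because same-numbered arrays deviated together from their group means. With the replicate block, limma called 3 of 10 members where it called 8.87% of all genes. Slc2a3 was the 1 gene called higher (6.73% of all genes), and Slc16a1 and Slc16a3 were the 2 called lower (2.13% of all genes). Over the 10 members 5 changes were positive and 5 negative, with a median of 0.00 against 0.03 for all genes. All 3 pairs had a positive difference in 4 members (27.7% of all genes) and a negative one in 4 members (16.8% of all genes), and 2 members were mixed. The light damaged values lay wholly above the dark adapted ones in 2 members, Slc2a1 and Slc2a3 (11.9% of all genes), and wholly below them in 0 (3.75% of all genes).

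**Figure D1:**
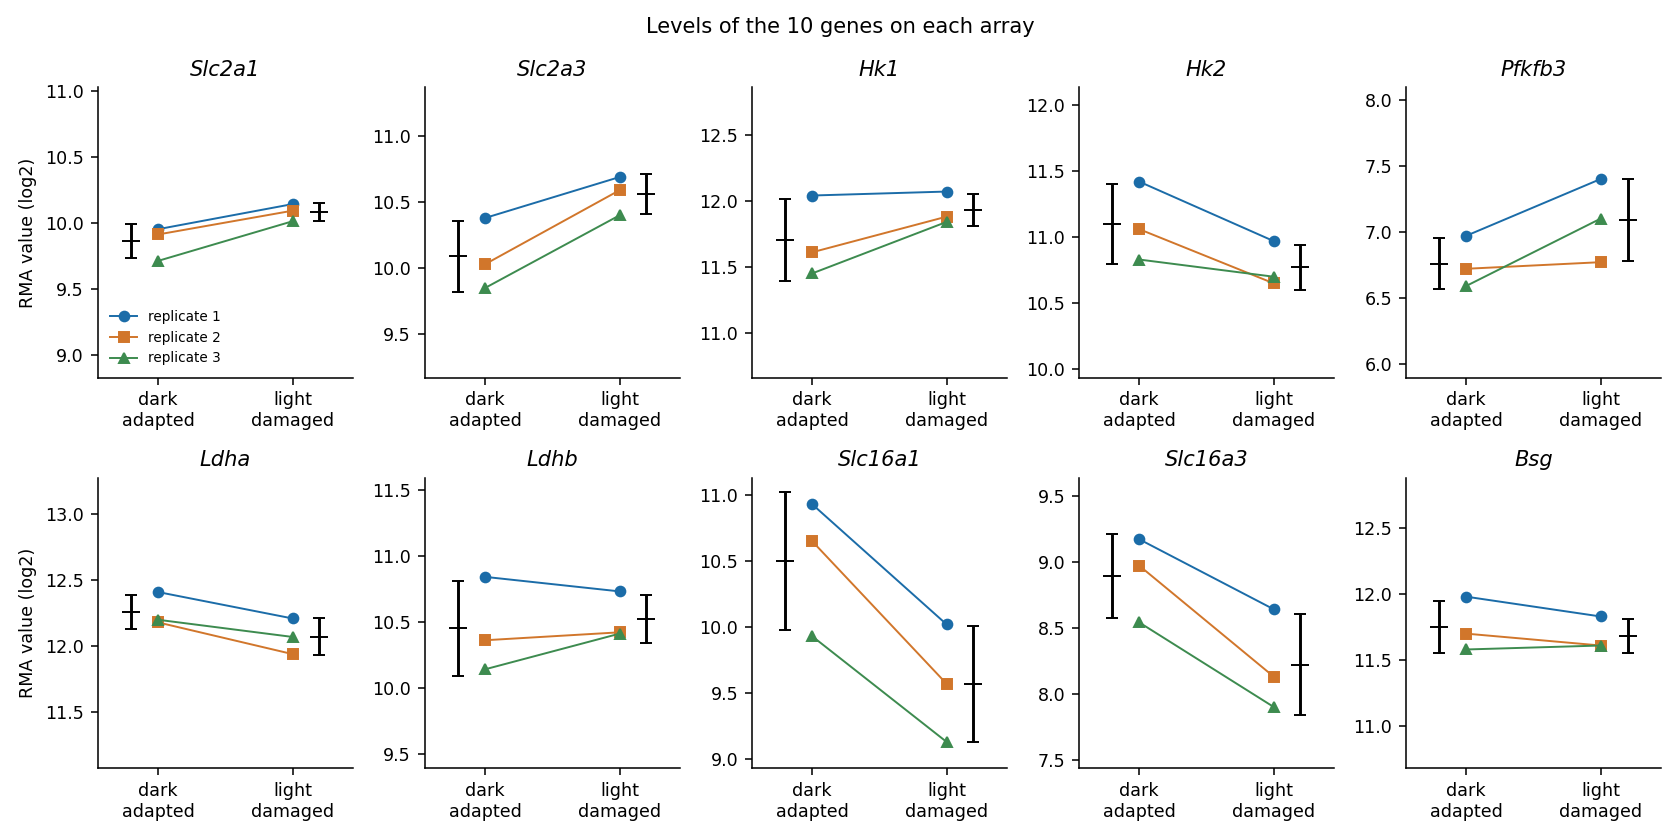
RMA values (log2, vertical axis, each panel spanning the same range) of the 10 genes on the 6 arrays, with lines joining arrays of the same replicate number and black bars giving the group mean ± SD (n = 3). The Slc16a1 and Slc16a3 lines run downward in parallel, while replicate 1 lies above replicate 3 in both groups.

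Promoter letters are shown for the 2 carriers that were lower together and for Hk2. They are RefSeq windows of the build GRCm38.p6 that end at the base before the annotated start, 5′ to 3′. Capitals mark ACGTG or GCGTG, forms of the core that hypoxia-inducible factors bind, or TAATCC, the core bound by the photoreceptor factor Crx, each on either strand. CACGTG holds ACGTG on both strands and counts once per strand. The Slc16a1 window is chr3:104638414-104638663, plus strand. The Slc16a3 window, chr11:120948967-120949066, plus strand, is kept to 100 bases because the annotated gene reaches further upstream. The Hk2 window is chr6:82774455-82774704, minus strand.
Slc16a1: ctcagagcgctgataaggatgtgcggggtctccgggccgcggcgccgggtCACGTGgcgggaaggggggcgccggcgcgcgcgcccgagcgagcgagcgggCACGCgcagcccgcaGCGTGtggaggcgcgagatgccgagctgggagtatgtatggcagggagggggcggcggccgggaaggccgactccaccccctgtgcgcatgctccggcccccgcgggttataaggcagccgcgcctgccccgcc
Slc16a3: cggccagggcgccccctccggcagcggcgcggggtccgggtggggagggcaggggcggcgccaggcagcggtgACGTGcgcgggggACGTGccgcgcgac
Hk2: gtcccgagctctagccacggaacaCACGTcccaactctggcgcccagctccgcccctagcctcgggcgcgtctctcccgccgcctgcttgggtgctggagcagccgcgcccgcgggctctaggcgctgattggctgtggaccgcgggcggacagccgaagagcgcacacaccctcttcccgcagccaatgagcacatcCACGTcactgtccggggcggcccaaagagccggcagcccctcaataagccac

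Windows of 250 bases were found for 8 of the 10 genes, and 3 of these genes had several. ACGTG was present in a window of 6 of the 8, namely Slc2a1, Hk2, Pfkfb3, Ldha, Slc16a1 and Slc16a3, which is 7 of their 11 windows, against 16.6% of all 32851 windows. The windows of Hk1 and Ldhb held no ACGTG, but 3 and 1 GCGTG sites. TAATCC occurred in 1 of the 11 windows (of Ldha) and in 6.25% of all windows. GCGTG occurred in windows of Slc2a1, Hk1, Pfkfb3, Ldha, Ldhb and Slc16a1, and in 28.2% of all windows. The Slc16a1, Slc16a3 and Hk2 windows held 76.4%, 73.6% and 69.6% G and C over 250 bases, against a median of 52.4% over all windows. A match is a description of these letters only. The genes with ACGTG had changes of both signs, among them -0.93 for Slc16a1 and 0.23 for Slc2a1.

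Slc16a1 values were 10.93, 10.65 and 9.93 (log2) in dark adapted replicates 1, 2 and 3, and 10.02, 9.57 and 9.13 in the light damaged ones. Light damaged replicate 1 lay above dark adapted replicate 3, so the groups overlapped, although every light damaged array lay below the dark adapted array of its own number. The means were 10.50 ± 0.52 and 9.57 ± 0.44 (SD, n = 3 per group), and the change was -0.93 ± 0.30 (SE). limma gave adjusted p = 0.226 without and 0.000816 with the replicate block, where the standard error was 0.11. Without the block it passed after quantile normalization (-1.09, adjusted p = 0.0347) and after centring on the reference genes (-1.23, adjusted p = 0.0466). The 3 pair differences were -0.92, -1.08 and -0.80. Of all genes, 0.396% had a lower change than Slc16a1. A second Slc16a1 probe set was dim, at 5.21, 5.28 and 5.46 against 5.01, 4.85 and 5.03, near the lower quartiles of the arrays (4.98 to 5.11). It was lower by 0.36 without overlap between the groups, and its adjusted p over all probe sets was 0.12 with the block.

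Slc16a3 values were 9.17, 8.97 and 8.54 in the dark adapted and 8.64, 8.13 and 7.90 in the light damaged replicates. As for Slc16a1, only light damaged replicate 1 lay above the lowest dark adapted array. The change was -0.67 ± 0.23 (SE), with pair differences of -0.53, -0.83 and -0.64, and limma gave adjusted p = 0.282 without and 0.00555 with the block. Without the block it passed after centring on the reference genes (-0.97, adjusted p = 0.0477). This gene has 1 probe set. When replicate 2 of both groups was left out of the fit with the block, Slc16a3 lost its call (adjusted p = 0.0561), and Slc16a1 kept it (adjusted p = 0.000774). The 6 mean-centred values of both carriers differed by a root mean square of 0.183, the smallest difference of Slc16a1 to any of the other 9 members. Other pairs of members lay closer, such as Ldha and Bsg (0.092) and Hk1 and Ldhb (0.092).

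Bsg gave no call in either fit. It stood at 11.98, 11.70 and 11.58 in dark adapted and 11.83, 11.61 and 11.61 in light damaged retinas, with a change of -0.07 and a 95% interval of -0.41 to 0.27. Its single probe set does not separate the short basigin form from the longer one that photoreceptors make. Of the other carriers of this family and their partners, none of 13 measured genes passed without the block (2.01% of all genes did). Their median change was -0.06. Slc16a4, an orphan member of the carrier family, had the smallest p (-0.54 ± 0.20 SE, adjusted p = 0.33). With the block it was the 1 gene called lower (adjusted p = 0.0155), where 2.13% of all genes were. Its second probe set gave -0.09 with pair differences of both signs. Slc16a8, the carrier MCT3 of the pigment epithelium, had a change of -0.03.

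Rod and cone markers were lower on the same arrays. Of 10 measured rod genes 2 fell (0.269% of all genes did), and with the block 5 fell (2.13% of all genes). Their median change was -0.58, with no positive change. Their mean level ranged from 11.82 to 12.36 in dark adapted and from 11.38 to 11.76 in light damaged retinas, and none was dim. In whole retina, fewer cells of a type and less RNA per cell cannot be told apart. The pair differences of the rod mean were -0.61, -0.78 and -0.39. Of 8 cone genes 3 fell, against the same 0.269% of all genes, with a median of -0.69. Their relation to the carriers was read only as a difference of changes. The change of Slc16a1 was below that of the rod mean by 0.34, at -0.31, -0.29 and -0.41 in the 3 pairs (exact permutation test, two-sided p = 0.3). For Slc16a3 the same comparison gave -0.07 (exact p = 0.8). With 3 arrays against 3 this permutation test cannot give a p below 0.1. The 4 contrasts with the rod mean had Benjamini-Hochberg values between 0.2 and 0.8.

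By the smallest root mean square difference over the 6 mean-centred values, the genes most like Slc16a1 were Ppm1n, Lrit2, Cdr2, Ppp3cc and Vopp1 (0.049 to 0.120). Ppm1n, related to protein phosphatases, stood at 9.03, 8.65 and 8.10 in dark adapted and 8.08, 7.62 and 7.19 in light damaged retinas. Its change was -0.96, and those of the other four were -0.94, -0.92, -0.80 and -0.96. None of the 5 passed without the block (adjusted p between 0.0962 and 0.251). With it their adjusted p lay between 0.00051 and 0.00194, which is no separate result, as they were chosen for their likeness to Slc16a1.

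Both glucose transporter genes had positive changes. Slc2a3, which encodes GLUT3, a high-affinity transporter of neurons, was at 10.38, 10.03 and 9.85 in dark adapted and 10.69, 10.59 and 10.40 in light damaged retinas. The groups did not overlap, but dark adapted replicate 1 lay just below light damaged replicate 3. The change was 0.47 ± 0.17 (SE), with pair differences of 0.31, 0.56 and 0.54, and adjusted p was 0.305 without and 0.0273 with the block (limma). The other 3 probe sets gave 0.50, 0.27 and 0.53. Over all probe sets, where 4.68% were called with the block, the main Slc2a3 probe set missed the threshold (adjusted p = 0.0535) and the probe set with the change of 0.53 passed it (adjusted p = 0.0318). The call was lost without replicate 2 of both groups (adjusted p = 0.261) and after quantile normalization (0.32, adjusted p = 0.103 with the block), and the change was 0.17 after centring on the reference genes (adjusted p = 0.176 with the block).

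Slc2a1, which encodes GLUT1, the transporter of photoreceptors, glia and the blood-retina barrier, was at 9.95, 9.91 and 9.71 in dark adapted and 10.14, 10.09 and 10.01 in light damaged retinas. The groups did not overlap. The change was 0.23 ± 0.13 (SE; 95% interval -0.07 to 0.52, adjusted p = 0.638), and its other 2 probe sets gave 0.22 and 0.15. After quantile normalization the Slc2a1 change was 0.07. Centred on the mean of 6 reference genes, which shifts the median of all genes from 0.03 to -0.27, the Slc2a1 change was -0.08. One of these 6, the ribosomal protein gene Rplp0, itself rose (1.20, adjusted p = 0.00441), and the others lay between -0.11 and 0.27, so centred values also carry the Rplp0 rise. Of 8 endothelial genes, which mark the cells of that barrier, none passed without the block and 1 rose with it (Kdr, 0.44, adjusted p = 0.0318). The mean level of the list was 6.68 to 6.80 in dark adapted and 6.81 to 6.84 in light damaged retinas. Their part in the Slc2a1 values was not tested. Among 11 other glucose transporter genes none passed without or with the block, where 2.01% and 8.87% of all genes did. The changes lay between -0.11 and 0.28. Slc2a13, a transporter of myo-inositol, had the smallest p (0.28, adjusted p = 0.563).

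Hk1 and Hk2 had changes of opposite sign, neither of which passed. Hk2 was at 11.42, 11.06 and 10.83 in dark adapted and 10.97, 10.65 and 10.70 in light damaged retinas, lower in each pair (-0.45, -0.41 and -0.13) with overlapping groups. Its change of -0.33 ± 0.18 (SE) did not pass (adjusted p = 0.61 without and 0.114 with the block). Without dark adapted replicate 1 the change was -0.17. With the block it passed after quantile normalization (-0.49, adjusted p = 0.0221), after centring on the reference genes (-0.63, adjusted p = 0.0162) and without replicate 3 of both groups (-0.43, adjusted p = 0.000893). Hk1 was at 12.04, 11.61 and 11.45 against 12.07, 11.88 and 11.84, a change of 0.23 ± 0.18 (SE, adjusted p = 0.776), and its second probe set gave 0.29. The Hk1 change was 0.10 without dark adapted replicate 3 and 0.40 without dark adapted replicate 1. It was 0.03 after quantile normalization and turned to -0.07 when arrays were centred on the reference genes.

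**Figure D2:**
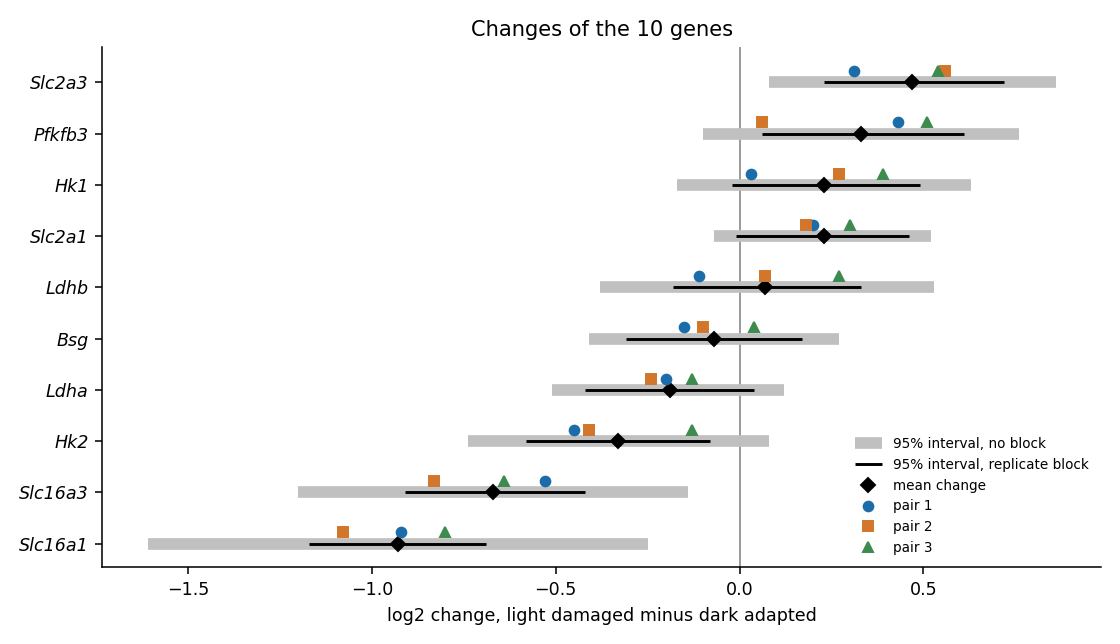
Log2 change of each of the 10 genes (horizontal axis, light damaged minus dark adapted): diamonds are means, coloured marks the 3 same-numbered pairs, grey bars the 95% intervals without and black lines those with the replicate block. Slc16a1 and Slc16a3 lie farthest to the left at -0.93 and -0.67, and Slc2a3 farthest to the right at 0.47.

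The 4 pairs of related genes were set against each other within arrays. Only differences of changes were read, as levels of different probe sets cannot be compared. Changes can also differ between probe sets of the same gene, as for Slc16a1 (-0.93 and -0.36). The change of Hk2 minus that of Hk1 was -0.56, at -0.48, -0.68 and -0.52 in the 3 pairs. The log2 difference of Hk2 and Hk1 had an SD of 0.04 over the dark adapted and 0.06 over the light damaged arrays (n = 3 each), and the groups did not overlap (exact permutation test, two-sided p = 0.1, the smallest possible). For Ldha minus Ldhb the difference of changes was -0.26, with pair values of -0.09, -0.31 and -0.40 (exact p = 0.2). Slc16a1 minus Slc16a3 gave -0.26, with -0.39, -0.24 and -0.16 (exact p = 0.2), and Slc2a1 minus Slc2a3 gave -0.25, with -0.11, -0.38 and -0.24 (exact p = 0.2). All 12 pair values were negative, but they come from the same 3 pairs of arrays and are not independent. Slc16a1 and Slc2a1 are not forms of photoreceptors alone, so the shared sign was not read further. The permutation test could not reach 0.05 for any of the 4 contrasts, and their Benjamini-Hochberg values were 0.2. Other probe sets gave -0.62 to -0.56 for Hk2 minus Hk1 and -0.26 to -0.15 for Ldha minus Ldhb. They gave -0.38 to -0.04 for Slc2a1 minus Slc2a3. With the dim Slc16a1 probe set, Slc16a1 minus Slc16a3 became 0.31, so the sign of that contrast holds for the bright probe set only.

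**Figure D3:**
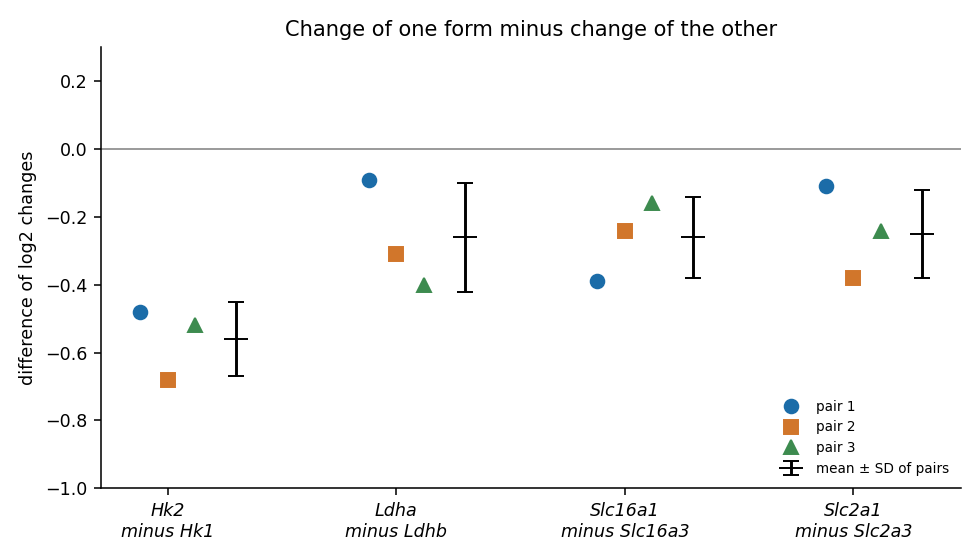
Difference of log2 changes (vertical axis) between the paired genes named on the horizontal axis, with the 3 same-numbered pairs as coloured marks and the mean ± SD of the pairs (n = 3) in black. Hk2 minus Hk1 lies lowest at -0.56, and the other 3 contrasts lie between -0.26 and -0.25.

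Hk2 and Ldha were also set against the rod mean, as both forms are known from photoreceptors. The change of Hk2 was above that of the rod mean by 0.26, at 0.15, 0.37 and 0.26 in the pairs, and that of Ldha by 0.40, at 0.40, 0.54 and 0.26. The exact permutation test gave two-sided p = 0.1 for each, the smallest possible. Ldha, which encodes the muscle-type subunit, stood at 12.41, 12.18 and 12.20 in dark adapted and 12.21, 11.94 and 12.07 in light damaged retinas. It was lower in each pair by 0.20, 0.24 and 0.13, but the groups overlapped and the change of -0.19 did not pass (95% interval -0.51 to 0.12, adjusted p = 0.753). Ldhb, which encodes the heart-type subunit, stood at 10.84, 10.36 and 10.14 against 10.73, 10.42 and 10.41. The change was 0.07 (95% interval -0.38 to 0.53), and its 4 probe sets gave between -0.04 and 0.07, so the sign differed between probe sets.

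The remaining hexokinase genes were read from the list of other glycolytic enzymes. Hkdc1 encodes a hexokinase domain protein and is the next protein-coding gene beside Hk1. It alone of 16 measured enzymes passed without the block, where 2.01% of all genes did. It rose from 7.53, 7.44 and 7.42 to 8.40, 8.40 and 8.51, with a wide gap between the groups. The change was 0.98 ± 0.12 (SE; 1.97-fold, limma adjusted p = 0.00547), and the pair differences were 0.87, 0.96 and 1.09. A second, dim Hkdc1 probe set (4.52 to 4.82) gave -0.06, and the mean of both probe sets did not pass (0.46, adjusted p = 0.0747). Hkdc1 also missed the threshold when arrays were centred on the reference genes (0.67, adjusted p = 0.105). The changes of the other 15 enzymes lay between -0.49 and 0.25, with Pkm, the pyruvate kinase gene, at -0.15 and Pgk1, the phosphoglycerate kinase gene, at -0.11. The list had 8 positive and 8 negative changes, a median of -0.02 and 0 falls.

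The regulators of phosphofructokinase had changes of both signs. Pfkfb3, whose enzyme makes the main activator of that step, was at 6.97, 6.72 and 6.59 in dark adapted and 7.40, 6.77 and 7.10 in light damaged retinas. The groups overlapped, since light damaged replicate 2 lay below dark adapted replicate 1, and the change of 0.33 ± 0.19 (SE) did not pass (adjusted p = 0.628 without and 0.137 with the block). The change was 0.18 without light damaged replicate 1, 0.49 without light damaged replicate 2, and 0.03 after centring on the reference genes. A second probe set gave 0.26. Pfkfb2, a related gene with another tissue distribution, was at 10.66, 10.39 and 9.49 against 9.74, 9.31 and 9.21, a change of -0.76 ± 0.30 (SE; limma adjusted p = 0.363 without and 0.014 with the block). Its other 3 probe sets gave -0.72, -0.69 and -0.62. Tigar, which encodes a phosphatase that lowers the same activator and was named after its values were seen, had a change of -0.51 (adjusted p = 0.389 without and 0.0376 with the block). Its other 2 probe sets gave -0.08 and -0.26.

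**Figure D4:**
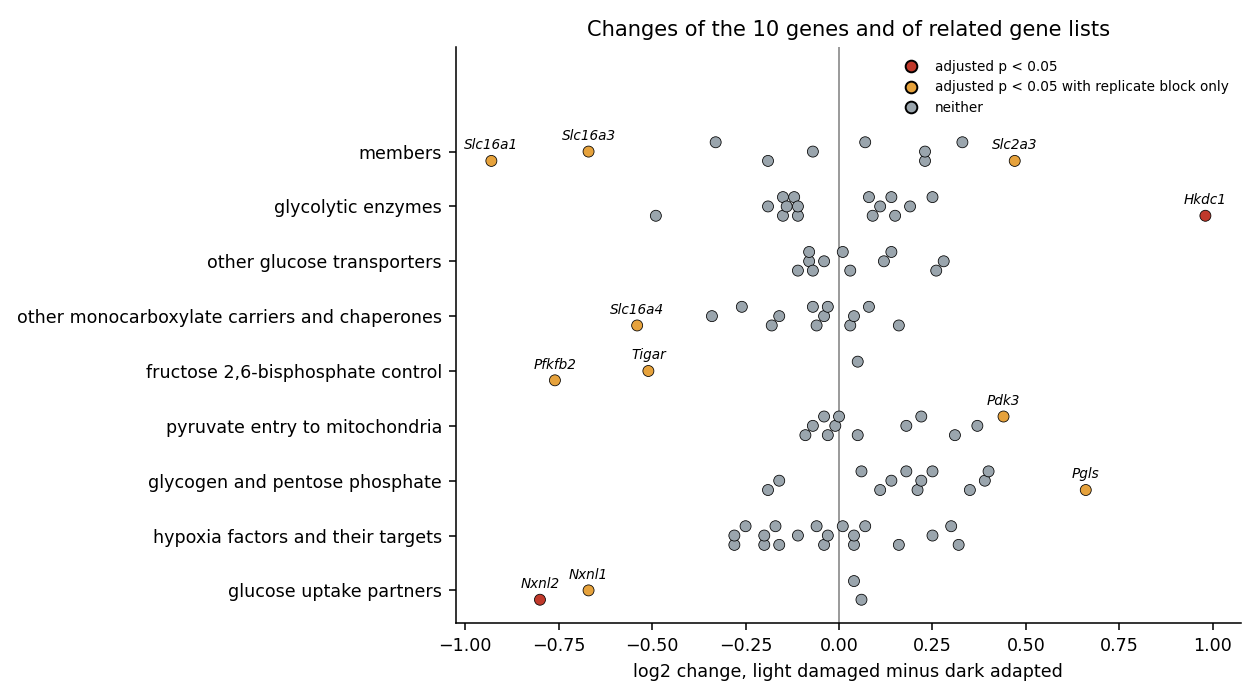
Log2 change (horizontal axis, light damaged minus dark adapted) of each measured gene in the 10 members and in 8 related lists (rows; vertical scatter within a row carries no value). Hkdc1 at 0.98 and Nxnl2 at -0.80 are the 2 genes past the adjusted p threshold without the replicate block, and the orange marks pass with the block only.

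Of 4 partners of glucose uptake 1 fell, where 0.269% of all genes did. With the block 2 fell, where 2.13% of all genes did. Nxnl1 encodes the rod-derived cone viability factor, a thioredoxin-like protein that acts on cones through basigin and GLUT1, and Nxnl2 encodes its close relative. Nxnl2 fell from 10.58, 10.30 and 10.20 to 9.74, 9.35 and 9.59 (limma adjusted p = 0.0489), without overlap. A second Nxnl2 probe set fell further, from 7.60, 7.62 and 7.70 to 6.53, 6.65 and 6.68. Its adjusted p over all probe sets was 0.00859, where 1.02% of probe sets passed. In that fit the first probe set missed the threshold (adjusted p = 0.0793). The call of the first over all genes rested on all 6 arrays: with any 1 array left out its adjusted p was between 0.0589 and 0.198. That call was also lost with a variance trend (adjusted p = 0.0668). Nxnl1, named after its values were seen, changed by -0.67 (adjusted p = 0.0785 without and 0.00721 with the block). Txnip, an inhibitor of glucose uptake, and Arrdc4, its relative, had changes of 0.04 and 0.06. The rod markers given above were lower on these arrays too, and their part in the Nxnl1 and Nxnl2 values was not tested.

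The steps around glycolysis were read beside the shares of all genes called, 2.01% without and 8.87% with the block. In lists this short, 0 calls are close to these shares. In the list of pyruvate entry to mitochondria none of 12 genes passed, with a median of 0.03. Pdk3, a kinase that inhibits pyruvate dehydrogenase, had the smallest p (0.44, adjusted p = 0.643) and passed with the block (adjusted p = 0.0348). Of 13 glycogen and pentose phosphate genes none passed, but 11 changes were positive and the median was 0.21. Pgls, a pentose phosphate enzyme, was at 8.89, 8.50 and 8.35 against 9.31, 9.14 and 9.27 without overlap (0.66, adjusted p = 0.106 without and 0.0102 with the block). Of 19 hypoxia factors and their targets, 0 passed limma with or without the block, and the changes lay between -0.28 and 0.32. Egln2, an oxygen-sensing hydroxylase gene, had the smallest p (0.32, adjusted p = 0.46). Vegfa, a target of hypoxia-inducible factors, had a change of 0.04.

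Markers of other cells were read on the same arrays, where 2.01% of all genes passed without and 8.87% with the block. As a check of the labelled tissue, none of the rod genes was dim, and Gnat1, the rod transducin gene, lay between 12.93 and 13.51. Genes of the reactive glia list rose in 7 of 8 cases (median 2.55). Their mean level went from 6.30 to 6.59 in dark adapted to 8.80 to 9.01 in light damaged retinas. This list counts Edn2 (3.69), whose cell of origin was not tested. Müller glia genes were split, with 1 rise and 0 falls among 9, and 3 rises and 3 falls with the block. Of 9 microglia and macrophage genes 2 rose, and with the block 3 rose and 1 fell (P2ry12, -0.48, adjusted p = 0.0199). Their median change was 0.09, and 3 of them were dim. Their mean level of 5.72 to 5.96 became 6.20 to 6.33. Pigment epithelium genes, whose cells also carry MCT1, gave no call without the block in 7, and 1 rose with it (Ttr, 0.99, adjusted p = 0.0471). Their mean level was 6.54 to 6.70 against 6.59 to 7.01. The mean level of the lens list was 10.27, 11.15 and 11.50 in dark adapted replicates 1, 2 and 3. In the light damaged ones it was 10.23, 10.42 and 11.63. It was highest in replicate 3 of both groups, where Slc16a1 was lowest. The lens gene Cryaa lay between 12.97 and 13.88. The mean level of the erythrocyte list lay between 5.20 and 5.62. Neither list had a call without the block, and with it 1 lens gene, Lim2, fell (-0.68, adjusted p = 0.0418). Genes of pericytes and of inner neurons gave no call either, with or without the block. The part of these cells in the values of the 10 genes was not tested.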

How the data were processed

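Total RNA of whole retinas was hybridised to 6 Affymetrix arrays, which were grouped by title. RMA (robust multi-array average) is the tool the authors used, per the submitters' processing notes, and no version or genome build is stated there. The values deposited by the authors are log2 levels, as their range of 3.30 to 13.89 shows, and they entered the tests unchanged. RMA makes array distributions nearly alike, so a change in total RNA would not be seen. Repeating quantile normalization still moved changes, such as Slc16a1 from -0.93 to -1.09 and Hk1 from 0.23 to 0.03. The number of arrays limits the precision.

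Each gene was read by its brightest probe set (mean of 6 arrays) with no other gene assigned, which left 18193 genes, unfiltered by level. Listed genes without such a probe set were not analysed here. Groups were compared with limma 3.58.1 (R 4.3.3), adjusting by Benjamini-Hochberg over all genes, and a second fit covered 45037 probe sets. Only the fit without the replicate block was tested on simulated data, in which same-numbered arrays did not vary together. Within-array contrasts used exact two-sided permutation tests. Those against the rod mean were added after seeing the data. The 4 contrasts of related genes also had a sign-flip test of their 3 pair differences. Alternatives covered the replicate block, probe set choice, normalization, centring on 6 reference genes, low values, a variance trend and each array left out.

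Same-numbered arrays had correlated deviations from group means (0.731, 0.618 and 0.432, all over 0.1; other arrays -0.48 to 0.00902), so the numbers were taken as pairs; no label states this pairing.

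Named were all 10 genes, called genes of each list (at most 4) or else the smallest p, and the 5 genes most like the member with the smallest p. The members and lists were chosen with earlier results of these data known.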

Additional observations from a re-analysis of the deposited data

How the results depend on the processing

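Without the replicate block 365 genes passed, 316 higher and 49 lower. The block gave 1613, and leaving out 1 array gave 151 to 417 (180 without dark adapted replicate 2; 212, 151 and 159 without light damaged replicates 1, 2 and 3). Quantile normalization gave 325 higher and 162 lower, and reference centring 116 and 199. With the block, the counts were 1511, 1075 and 3166 without replicates 1, 2 and 3 of both groups, 1241 after quantile normalization, 3152 after reference centring and 1327 with the mean of all probe sets. These settings with the block were chosen after seeing the data.

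The number of the 10 genes passing was 0 without the block and with any 1 array left out. It was 1 after quantile normalization (Slc16a1, -1.09), 2 after reference centring (Slc16a1 and Slc16a3), and 3 with the block. With the block it was 3, 1 and 4 without replicates 1, 2 and 3, 3 after quantile normalization, 5 after reference centring and 3 with the mean of all probe sets. Hk2 passed in 3 of these (-0.63 to -0.43), Ldha and Bsg after centring only (-0.50 and -0.37). Of the related list genes 2 passed without the block, 8 with it and 1 with a variance trend. Leaving out 1 array gave 1 to 3, and with the block leaving out 1 replicate number gave 7, 6 and 15. With the block, quantile normalization gave 9, centring 22 and the mean of probe sets 8.

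Reversed signs, none of a called change, were those of Slc2a1 (-0.08) and Hk1 (-0.07) after centring and of Bsg without dark adapted replicate 1 (0.04; -0.16 to 0.04 with 1 array left out). Ldhb reversed after quantile normalization (-0.07), centring (-0.23), without dark adapted replicate 3 (-0.08), without light damaged replicate 1 (-0.03) and, with the block, without replicate 3 (-0.02); with 1 array left out it ranged from -0.08 to 0.27. Slc16a1 minus Slc16a3 became 0.02 with the mean of probe sets. Centring subtracts the mean change of 6 reference genes, of which Rplp0 had 1.20 and the others -0.11 to 0.27; the other causes were not tested.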
